A study of Mus musculus with 40 samples.

Results

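The clustered protocadherins are cell-surface adhesion proteins of the cadherin superfamily that are encoded by the Pcdha, Pcdhb and Pcdhg gene clusters. Members were taken as the genes whose symbol is Pcdha, Pcdhb, Pcdhga, Pcdhgb, Pcdhac or Pcdhgc followed by a number, provided that their counts added up to 20 or more across the mice. All 58 matching genes passed, out of 28449 genes that reached this sum and 40853 in the count table. The alpha cluster held 14 of them, 12 alternate isoforms and the C-type isoforms Pcdhac1 and Pcdhac2. The beta cluster held 22, and the gamma cluster also held 22, with 12 of subfamily A, 7 of subfamily B and the C-type isoforms Pcdhgc3, Pcdhgc4 and Pcdhgc5.

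RNA-seq was performed on hippocampal tissue from 40 mice, 18 females and 22 males, with 1 library per mouse. H2A.Z is a variant of histone H2A that replaces it in some nucleosomes, and the study compared its deletion with its replacement by forms of H2A.Z.1. Replacement mice, called WT, KA or KQ below after the form of H2A.Z.1 they were given, received Cre recombinase driven by the neuron-specific synapsin promoter and, from the CMV promoter, 3xMyc-tagged H2A.Z.1. The tagged protein was unaltered (WT), or had lysines of its N-terminal tail changed to alanine, which cannot be acetylated (KA), or to glutamine, which mimics acetylation (KQ). H2A.Z KO mice received Cre together with the 3xMyc vector, and Myc mice received the 3xMyc vector without Cre, so that KO and Myc mice differ in Cre virus as well as in deletion. The labels call the deleted mice KD (H2A.Z.1/H2A.Z.2 KD), where the study's text has KO, and give the Myc mice the genotype WT, while the study's methods describe a single line floxed for both H2A.Z genes. The age of the mice was not given in the sources used here. The study put mice through behavioural testing, and its text does not say whether the sequenced mice were among them. Females comprised 4 WT, 4 KA, 3 KQ, 4 KO and 3 Myc mice, and males comprised 5 WT, 4 KA, 5 KQ, 4 KO and 4 Myc mice.

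In the alpha and gamma clusters, each variable exon encodes the extracellular part of a protein, has its own promoter and is spliced to constant exons shared by the whole cluster, while beta genes are made of a single coding exon. A neuron is known to express a small, partly random choice of alternate isoforms through promoter choice that depends on CTCF, cohesin and DNA methylation, whereas C-type isoforms are expressed more uniformly. The proteins bind their own kind on other cells and are known for dendrite self-avoidance, axon tiling, synapse formation and the survival of interneurons.

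Levels are given as CPM, the counts of a gene relative to the library total after TMM scaling, and a member was called changed at an adjusted p under 0.05 by edgeR's quasi-likelihood test with Benjamini-Hochberg adjustment over all genes tested. On the GRCm39 assembly all 58 genes lie on the plus strand of chromosome 18, the alpha cluster at 37063237 to 37320716, the beta cluster at 37397991 to 37657532 and the gamma cluster at 37794846 to 37975014. GENCODE models of alpha members share 2860 to 2942 exon bases and those of gamma members 2116 to 3248, and how reads on shared exons were assigned is not given in the sources used here. Pcdha4, Pcdha6, Pcdha7 and Pcdhb1 were at 0 in at least 1 mouse, and 49 members averaged at least 1 CPM. In 16 members over 5% of the 75-base windows of their own exons also occurred in another member. Pcdha7 (13.9%), Pcdhgb1 (13.3%) and Pcdhgb2 (12.4%) had the highest shares. All alternate alpha isoforms were among the 16, such as Pcdha3 (10.9%), Pcdha5 (8.19%), Pcdha9 (6.86%) and Pcdha12 (5.01%). Counts of these 16 members are thus uncertain. No repeated window was found in Pcdhac1, Pcdhac2, Pcdhgc3, Pcdhgc4, Pcdhgc5, Pcdhga1, Pcdhga2, Pcdhga3 or Pcdhga4.

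Libraries held 24342921 to 45982772 counts (median 36417112). Of the deleted genes, H2az1 lay between 28.1 and 36.3 CPM in female KO mice against 28.1 to 34.5 CPM in female Myc mice, and between 17.7 and 37.5 CPM in male KO mice against 27.0 to 37.2 CPM in male Myc mice. H2az2 lay between 26.2 and 30.0 CPM in female KO against 19.4 to 26.0 CPM in female Myc mice, and between 20.8 and 29.3 CPM in male KO against 20.6 to 26.5 CPM in male Myc mice. Every female KO mouse had more H2az2 than every female Myc mouse, against the label. Neither gene was called in KO against Myc in either sex by edgeR's quasi-likelihood test, while DESeq2, and edgeR with DESeq2 size factors, each called 1 of them higher in female KO mice, and both were called higher in both sexes when libraries were scaled to pan-neuronal genes. A loss of H2A.Z RNA was thus not seen in these bulk counts, and KO stands throughout for the libraries labelled KD. The study's own mRNA data, by contrast, are reported to show less RNA of both genes in KO mice. The study calls that reduction small, and proposes that bulk tissue likely has low sensitivity for a deletion confined to neurons. It also reports a robust loss of H2A.Z in cultured hippocampal neurons given Cre. Female Myc mouse 32 stood apart from the other Myc females, since its counts gave a chi-square per df of 205 and 286 with them, against at most 108 for any pair of mice of another group. Without it, 12 members fell and 3 rose in female KO mice.

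The 3 clusters differed in level. In male Myc mice members of the gamma cluster summed to 211, 213, 219 and 227 CPM, those of the beta cluster to 124, 113, 120 and 119 CPM, and those of the alpha cluster to 42.7, 34.2, 42.2 and 40.3 CPM. Per kilobase of exon that belongs to a single member, the highest levels in these mice were those of C-type isoforms, with 10.2 ± 0.74 CPM per kb for Pcdhgc5, 9.27 ± 0.65 for Pcdhgc3 and 6.48 ± 0.68 for Pcdhac2 (SD, n = 4). These were followed by Pcdhga11 (5.03 ± 0.60), Pcdhga3 (4.32 ± 0.37) and Pcdhb9 (4.29 ± 0.10). Pcdhga3 and Pcdhb9 lay within their spread, as did Pcdhgc5 and Pcdhgc3 when 1 SD of each is allowed. The other C-type isoforms were low on this scale, with 1.07 ± 0.20 CPM per kb for Pcdhgc4 and 0.762 ± 0.12 for Pcdhac1. The lowest were Pcdha8, Pcdha6, Pcdha4, Pcdha7 and Pcdhb1, all under 0.1 CPM per kb. Levels per kb depend on the gene models, which are long for a few members such as Pcdhb14 with 8695 bases of its own.

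The question of the comparison of KO with Myc mice was which genes change when H2A.Z is deleted. In both sexes members of the alpha and beta clusters that were called were lower in KO mice, while those of the gamma cluster were called in either direction. Of the 58 members, 14 fell and 3 rose in female KO mice, against 16.5% of all genes tested that fell and 18.1% that rose. In male KO mice 28 members fell and 2 rose, against 14.4% of all genes that fell and 17.2% that rose. Thus the share of members that fell was 24.1% in females and 48.3% in males, and the share that rose was 5.17% and 3.45%. The median log2 fold change over the members was -0.29 in females and -0.45 in males, beside 0.0031 and 0.027 over all genes tested. Every KO mouse lay below every Myc mouse for 14 members in females and 20 in males (against 16.4% and 13.2% of all genes), and above for 4 and 3 (against 18.8% and 15% of all genes). In bulk tissue, fewer cells of a type and less RNA per cell cannot be told apart.

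**Figure D1:**
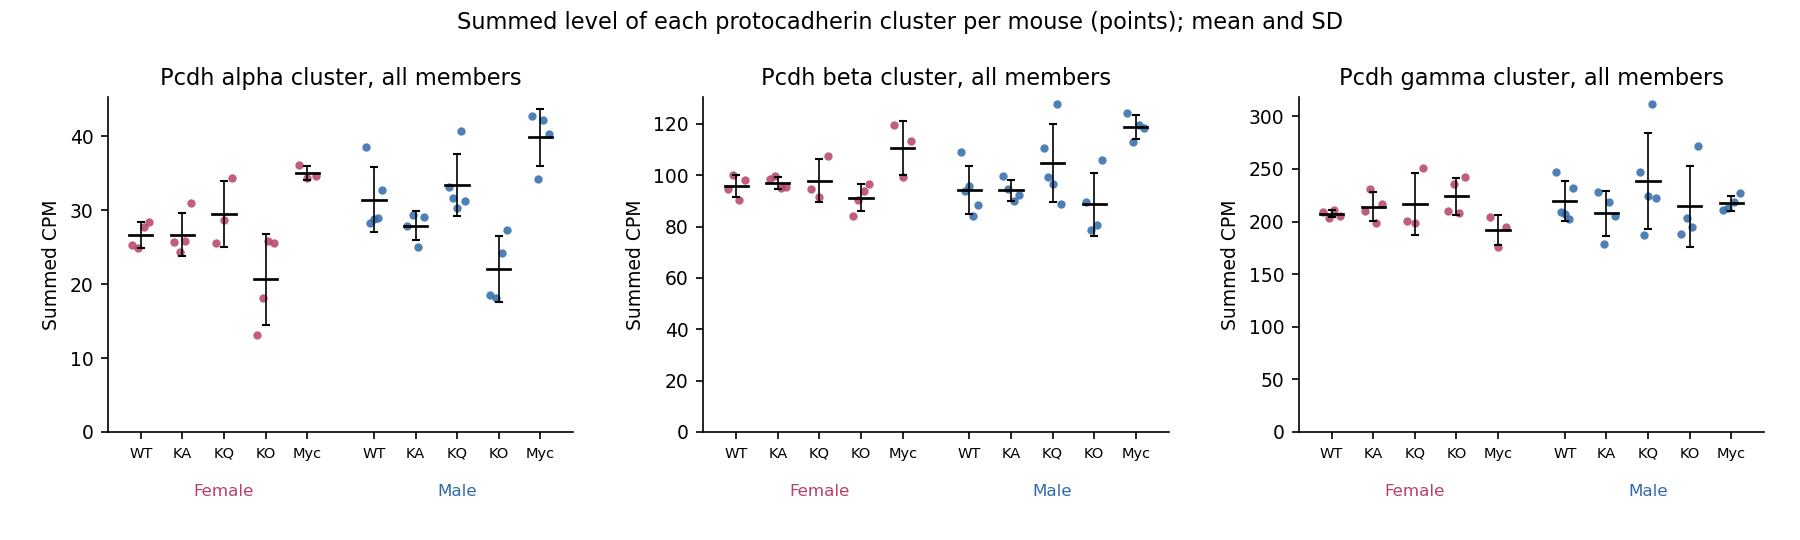
Summed CPM of all members of the alpha, beta and gamma cluster in each mouse (points), by sex and virus group, with bars for the mean and SD. Every KO mouse lies below every Myc mouse of its sex in the alpha cluster (13.1 to 25.9 CPM against 34.4 to 36.1 CPM in females), while KO and Myc mice overlap in the gamma cluster in males.

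Markers of cell types moved with the same comparison. Of 20 pan-neuronal genes, 18 fell in female and 14 in male KO mice, and their summed level was 7359 to 12570.2 CPM in female KO against 16354 to 18157 CPM in female Myc mice, and 8580 to 13911 CPM in male KO against 16292 to 17798.5 CPM in male Myc mice. Of 12 markers of hippocampal excitatory neurons 5 fell in female and 6 in male KO mice, and all 8 markers of GABAergic neurons fell in both sexes, with none of these at 0 in any of these mice. Of 10 astrocyte markers 7 rose in each sex, with sums of 7198 to 12822 CPM in female KO against 4334 to 5190 CPM in female Myc mice and 6667 to 10518 CPM in male KO against 4398 to 4839 CPM in male Myc mice. Of 10 microglial markers 9 rose in each sex, with sums of 860 to 1406 CPM in female KO against 315 to 434 CPM in female Myc mice and 873 to 1592 CPM in male KO against 299 to 396 CPM in male Myc mice. All 10 T and B cell markers rose in both sexes, of which Cd3d, Cd3g and Ms4a1 were at 0 in at least 1 Myc mouse of each sex. Of 10 choroid plexus markers 9 rose in female KO mice, where their sum was 111, 4041, 2927 and 62.6 CPM against 32.9, 47.4 and 27.3 CPM in female Myc mice, and none was called in males (43.8 to 663 CPM in KO against 32.1 to 595 CPM in Myc mice). Of 10 markers of endothelium and mural cells 8 rose in female and 3 in male KO mice, and of 10 markers of oligodendrocytes and precursors 6 and 3 rose. The part of these cell types in the results on protocadherins was not tested. When libraries were scaled to the summed pan-neuronal counts instead, the median of all genes moved to 0.78 in females and 0.59 in males, and 54.2% and 43.9% of all genes were called higher and 1.59% and 1.01% lower in KO. On that scale no member fell and 25 rose in female KO mice, and 3 fell and 8 rose in male KO mice. The calls of alpha members and the directions of beta and gamma members below thus hold for TMM scaling.

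Of the alpha cluster, 7 of 14 members fell in female and 9 in male KO mice, and none rose. The share that fell was 50% in females and 64.3% in males, beside 16.5% and 14.4% of all genes tested. The median log2 fold change was -0.74 in females, where all 14 values were negative, and -0.87 in males, where 13 were. Scaled to pan-neuronal genes, the alpha median was -0.044 in females and -0.33 in males. On that scale no alpha member fell in females, and only Pcdha3 and Pcdha5 fell in males. Summed over the cluster, the level was 13.1, 18.1, 25.9 and 25.5 CPM in female KO mice against 36.1, 34.4 and 34.7 CPM in female Myc mice. It was 18.5, 18.1, 24.1 and 27.3 CPM in male KO mice against 42.7, 34.2, 42.2 and 40.3 CPM in male Myc mice. KO and Myc mice did not overlap in either sex, and in females the lowest sums were those of KO mice 13 and 14, whose pan-neuronal sums were also the lowest (7359 and 8878 CPM, against 12570.2 and 12529 CPM in KO mice 33 and 34). As a share of all clustered protocadherin counts, the alpha cluster held 4.27% to 7.90% in female KO against 10.0% to 11.1% in female Myc mice, and 6.03% to 8.07% in male KO against 9.50% to 11.3% in male Myc mice. This share does not depend on how libraries are scaled.

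Pcdhac2, the most abundant alpha isoform and known for its part in the axonal tiling of serotonergic neurons, was at 7.14, 8.97, 13.7 and 12.7 CPM in female KO mice against 18.3, 18.8 and 16.1 CPM in female Myc mice. Male KO mice had 8.87, 9.60, 13.2 and 14.8 CPM against 21.6, 17.2, 21.0 and 21.7 CPM in Myc mice. All KO mice lay below all Myc mice of their sex, and the log2 fold change was -0.74 ± 0.17 (SE, adjusted p = 0.00078) in females and -0.81 ± 0.16 (adjusted p = 0.00011) in males. Scaled to pan-neuronal genes the value was -0.032 in females and -0.28 in males, neither of which passed (adjusted p = 0.88 and 0.11).

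Pcdhac1, the other C-type isoform of the cluster, was at 0.862, 1.07, 1.36 and 1.20 CPM in female KO mice against 2.22, 2.14 and 1.87 CPM in female Myc mice. In males it was at 1.22, 0.736, 1.29 and 1.38 CPM in KO mice against 1.53, 2.06, 2.23 and 1.98 CPM in Myc mice. The groups did not overlap in either sex, with log2 fold changes of -0.89 ± 0.22 (adjusted p = 0.0016) and -0.76 ± 0.21 (adjusted p = 0.0041).

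The alternate isoforms with the smallest p were Pcdha3, Pcdha5, Pcdha12 and Pcdha9, all of which fell in both sexes. Pcdha5 was at 0.619, 1.07, 1.36 and 1.72 CPM in female KO mice against 2.37, 1.78 and 3.19 CPM in female Myc mice, and at 1.54, 0.927, 1.15 and 1.64 CPM in male KO mice against 3.34, 2.41, 3.28 and 3.37 CPM in male Myc mice. The groups did not overlap, and the log2 fold change was -1.04 ± 0.28 (adjusted p = 0.0042) in females and -1.25 ± 0.27 (adjusted p = 0.00031) in males. Pcdha3 had the lowest log2 fold change of the alpha members called, with -1.05 ± 0.30 in females and -1.38 ± 0.28 in males. Its level was 0.377, 0.959, 0.895 and 1.47 CPM in female KO mice against 2.30, 1.34 and 2.09 CPM in female Myc mice, so that KO mouse 34 lay above a Myc mouse, while the males did not overlap (0.703 to 1.22 CPM in KO against 2.03 to 2.96 CPM in Myc). Pcdha12 fell by 0.75 and 0.71 and Pcdha9 by 0.89 and 0.93 on the log2 scale in females and males, although without female Myc mouse 31 Pcdha9 did not pass in females (adjusted p = 0.065). In males Pcdha3 and Pcdha5 also passed when libraries were scaled to pan-neuronal genes, with log2 fold changes of -0.83 and -0.72. Of the remaining alpha members, Pcdha10 fell in both sexes, Pcdha1 and Pcdha11 fell in males, and Pcdha2, Pcdha4, Pcdha6, Pcdha7 and Pcdha8 were not called in either sex. Of these, Pcdha4, Pcdha6, Pcdha7 and Pcdha8 averaged under 0.5 CPM.

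**Figure D2:**
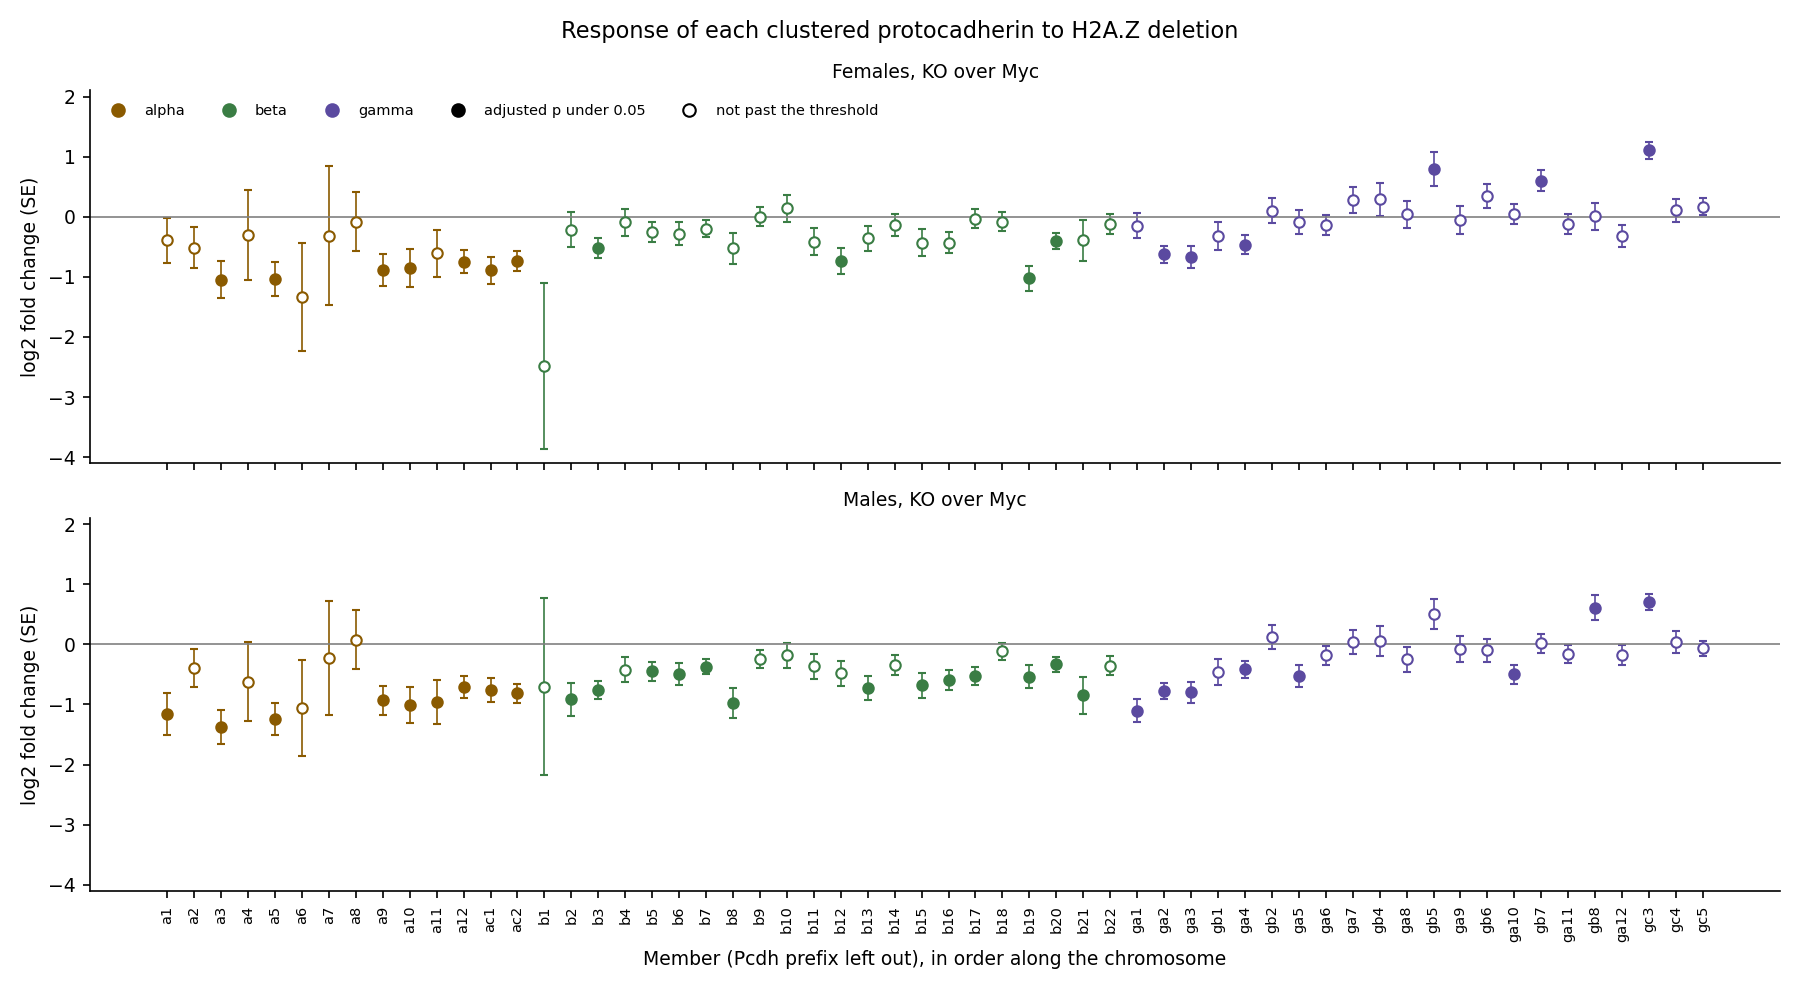
The log2 fold change of KO over Myc mice for each of the 58 members in order along the chromosome, with SE bars, in females and males. Filled points passed the test. Alpha members lie below 0 with the exception of Pcdha8 in males, and the 3' end of the gamma cluster holds Pcdhgc3 at 1.10 in females and 0.70 in males.

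Of the beta cluster, 4 of 22 members fell in female KO mice (Pcdhb3, Pcdhb12, Pcdhb19 and Pcdhb20) and 13 fell in male KO mice, and none rose. The share of beta members that fell was 18.2% in females, near the 16.5% of all genes tested, and 59.1% in males, against 14.4%. The median log2 fold change was -0.32 in females and -0.49 in males, and 21 and 22 of the 22 values were negative. The cluster summed to 84.3, 90.3, 93.8 and 96.5 CPM in female KO mice against 120, 99.2 and 113 CPM in female Myc mice, and to 89.7, 78.8, 80.7 and 106 CPM in male KO mice against 124, 113, 120 and 119 CPM in male Myc mice. KO and Myc mice did not overlap in either sex. Scaled to pan-neuronal genes, 8 beta members rose and none fell in female KO mice (Pcdhb10 by 0.89 on the log2 scale), and none was called in males. Without female Myc mouse 11 beta calls numbered 2, and without male KO mouse 4 or 21 they numbered 7 and 8.

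Pcdhb3 was at 3.82, 4.75, 4.07 and 4.30 CPM in female KO mice against 6.74, 5.42 and 6.05 CPM in female Myc mice. Male KO mice had 4.16, 2.94, 2.97 and 4.67 CPM against 7.06, 6.03, 6.19 and 5.68 CPM in Myc mice. The groups did not overlap, and the log2 fold change was -0.52 ± 0.16 (adjusted p = 0.011) in females and -0.77 ± 0.15 (adjusted p = 0.00013) in males, though in females it was 0.26 when scaled to pan-neuronal genes and did not pass without Myc mouse 11 (adjusted p = 0.072). Pcdhb19 was at 2.07, 2.50, 3.21 and 2.97 CPM in female KO mice against 5.17, 4.82 and 6.43 CPM in female Myc mice, with a log2 fold change of -1.03 ± 0.20 (adjusted p = 0.00014). In males it was at 3.97, 2.37, 3.09 and 6.35 CPM in KO mice against 5.86, 5.59, 5.34 and 5.93 CPM in Myc mice, so that KO mouse 42 lay above all Myc mice, and the log2 fold change was -0.54 ± 0.19 (adjusted p = 0.026). Without male Myc mouse 1 or 41, or male KO mouse 4 or 21, Pcdhb19 did not pass in males. Pcdhb8 and Pcdhb13 were called in males, with log2 fold changes of -0.98 ± 0.24 and -0.73 ± 0.20, and had values of -0.53 and -0.36 in females that did not pass.

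Of the gamma cluster, 3 of 22 members fell and 3 rose in female KO mice, and 6 fell and 2 rose in male KO mice. In females 13.6% of gamma members fell and 13.6% rose, which did not exceed the 16.5% and 18.1% of all genes tested. In males 27.3% fell and 9.09% rose, against 14.4% and 17.2% of all genes. The median log2 fold change was 0.023 in females and -0.13 in males. The cluster summed to 210, 236, 208 and 242 CPM in female KO mice against 204, 176 and 195 CPM in female Myc mice, and to 188, 203, 194 and 272 CPM in male KO mice against 211, 213, 219 and 227 CPM in male Myc mice. Female KO mice lay above all female Myc mice, while in males KO mouse 42 lay above and the other KO mice below all Myc mice. Every gamma member that fell belonged to subfamily A, and those that rose belonged to subfamily B or were Pcdhgc3. Without male KO mouse 3, 4 gamma members were called. Scaled to pan-neuronal genes, 17 gamma members rose and none fell in female KO mice, and 8 rose and Pcdhga1 fell in male KO mice.

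Pcdhga2, at the 5' end of the cluster, was at 3.77, 4.40, 5.06 and 4.14 CPM in female KO mice against 7.76, 5.85 and 6.43 CPM in female Myc mice. Male KO mice had 4.27, 4.50, 4.56 and 4.93 CPM against 8.32, 7.33, 7.39 and 8.29 CPM in Myc mice. The groups did not overlap, with log2 fold changes of -0.62 ± 0.14 (adjusted p = 0.00059) and -0.78 ± 0.13 (adjusted p = 1.1e-05), which were 0.13 and -0.22 when scaled to pan-neuronal genes.

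The neighbouring Pcdhga3 and Pcdhga4 also fell in both sexes, with log2 fold changes of -0.68 ± 0.18 and -0.46 ± 0.16 in females and -0.80 ± 0.17 and -0.41 ± 0.14 in males. Scaled to pan-neuronal genes they had values of 0.053 and 0.26 in females. Pcdhga4 did not pass without female KO mouse 13 or Myc mouse 32 (adjusted p = 0.11 and 0.15), or without male KO mouse 3 or 4 or Myc mouse 22 or 41. Pcdhga1, the first gene of the cluster, was at 2.19, 2.04, 2.34 and 3.76 CPM in male KO mice against 6.23, 5.17, 5.28 and 5.32 CPM in male Myc mice, with a log2 fold change of -1.10 ± 0.19 (adjusted p = 2.2e-05). In females it was at 3.37, 2.70, 2.53 and 3.57 CPM in KO mice against 4.49, 2.29 and 3.28 CPM in Myc mice, which overlap, and the log2 fold change of -0.15 ± 0.21 did not pass. In males Pcdhga1 also fell when libraries were scaled to pan-neuronal genes, with a log2 fold change of -0.57. Pcdhga5 and Pcdhga10 fell in males, with log2 fold changes of -0.53 and -0.50, and Pcdhga10 did not pass without KO mouse 3 (adjusted p = 0.056).

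Pcdhgc3, a C-type isoform known in mouse cortical neurons to promote dendrite branching through the Wnt regulator Axin1, had the highest log2 fold change of the members in both sexes. It was at 60.0, 64.3, 48.6 and 59.4 CPM in female KO mice against 29.9, 26.9 and 24.3 CPM in female Myc mice. Male KO mice had 42.3, 64.2, 43.6 and 54.2 CPM against 29.2, 29.8, 32.6 and 33.7 CPM in Myc mice. All KO mice lay above all Myc mice of their sex, and the log2 fold change was 1.10 ± 0.14 (adjusted p = 2.7e-07) in females and 0.70 ± 0.13 (adjusted p = 5.0e-05) in males. It was called without each mouse in turn. Scaled to pan-neuronal genes its values were 1.91 and 1.31, beside a median of 0.78 and 0.59 over all genes. As 54.2% and 43.9% of all genes were called higher on that scale, its call there adds little.

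Pcdhgc4 and Pcdhgc5, the next genes past Pcdhgc3, had smaller values. Pcdhgc5, the most abundant member, was at 46.4, 55.3, 55.0 and 63.2 CPM in female KO mice against 54.3, 45.4 and 47.2 CPM in female Myc mice, with a log2 fold change of 0.17 ± 0.14. In males it was at 45.8, 46.1, 53.1 and 71.2 CPM in KO mice against 51.4, 56.0, 57.5 and 61.5 CPM in Myc mice, with a log2 fold change of -0.069 ± 0.13. Pcdhgc4, known in the mouse to be required for the survival of cortical interneurons, had log2 fold changes of 0.10 ± 0.20 and 0.035 ± 0.18. Neither gene passed in either sex with TMM scaling (adjusted p = 0.39 to 0.92), and both passed in both sexes when scaled to pan-neuronal genes. The ratio of Pcdhgc3 to Pcdhgc5 within a library, which no scaling changes, was 1.29, 1.16, 0.883 and 0.940 in female KO mice against 0.551, 0.592 and 0.515 in female Myc mice. In males it was 0.923, 1.39, 0.820 and 0.761 in KO mice against 0.568, 0.531, 0.567 and 0.549 in Myc mice.

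Within groups, the deviations of Pcdhgc3 from its group mean (log2 CPM, 40 mice) correlated with those of the summed astrocyte markers at r = 0.65, with those of microglial markers at 0.52 and with those of pan-neuronal genes at -0.41. For Pcdhac2 the correlation was -0.53 with astrocyte, -0.58 with microglial and 0.70 with pan-neuronal sums, and for Pcdhgc5 it was -0.15, -0.32 and 0.52. With markers of oligodendrocytes and precursors it was 0.17 for Pcdhgc3, -0.52 for Pcdhac2 and -0.54 for Pcdhgc5. These are descriptions over mice that share libraries and scaling. Between members of at least 1 CPM the median correlation of deviations was 0.45 within the alpha cluster, 0.27 within the beta cluster, 0.46 within the gamma cluster and 0.25 to 0.28 between clusters.

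In subfamily B, Pcdhgb5 rose by 0.80 ± 0.28 (adjusted p = 0.024) and Pcdhgb7 by 0.60 ± 0.18 (adjusted p = 0.0078) on the log2 scale in female KO mice, and Pcdhgb8 by 0.61 ± 0.21 (adjusted p = 0.024) in male KO mice. Pcdhgb5 was at 3.72, 5.31, 3.55 and 5.83 CPM in female KO mice against 2.85, 1.94 and 3.15 CPM in female Myc mice, and did not pass without KO mouse 14 or 34 or Myc mouse 31 (adjusted p = 0.066 to 0.14). Pcdhgb7 was at 5.95, 6.89, 6.63 and 6.05 CPM in female KO mice against 3.99, 3.40 and 5.28 CPM in female Myc mice, and did not pass without Myc mouse 31 (adjusted p = 0.072). Pcdhgb8 was at 2.38, 2.02, 1.68 and 1.94 CPM in male KO mice against 1.41, 1.08, 1.11 and 1.65 CPM in male Myc mice. These groups did not overlap, yet Pcdhgb8 did not pass without KO mouse 3 or Myc mouse 22 or 23 (adjusted p = 0.076 to 0.085). Pcdhgb1, next to Pcdhga3, was not called in either sex, with values of -0.33 and -0.46, but was called lower in males without KO mouse 42 (-0.82, adjusted p = 0.0013).

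Along the gamma cluster, the log2 fold change of KO over Myc was lower at the 5' end and higher at the 3' end, and its Spearman correlation with gene order over the 22 genes was 0.57 (females) and 0.60 (males). Without the C-type isoforms it was 0.495 and 0.575 over 19 genes. Within subfamily A alone it was 0.51 and 0.73 over 12 genes, and within subfamily B 0.36 and 0.43 over 7 genes. It was -0.13 and 0.23 over the 14 alpha genes and 0.074 and 0.26 over the 22 beta genes. These values describe genes measured in the same mice, and subfamilies A and B alternate along the cluster.

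**Figure D3:**
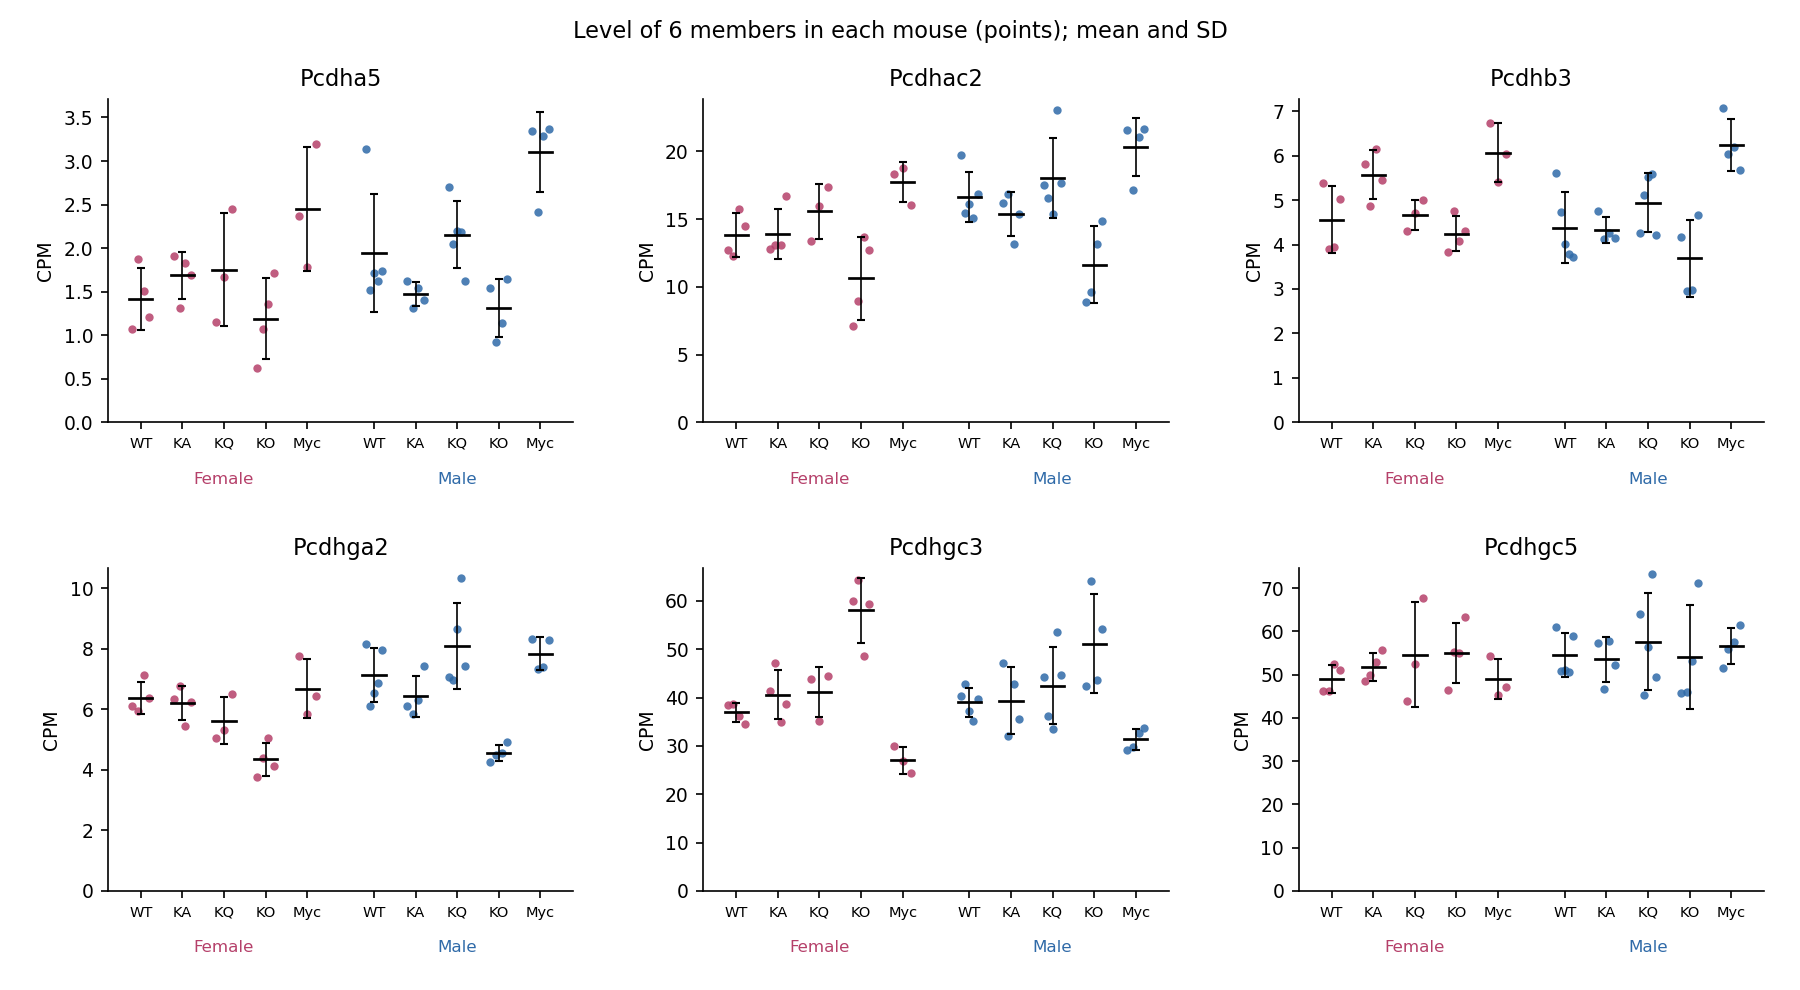
CPM of Pcdha5, Pcdhac2, Pcdhb3, Pcdhga2, Pcdhgc3 and Pcdhgc5 in each mouse (points), by sex and virus group, with bars for the mean and SD. For Pcdhgc3 the female KO mice sit between 48.6 and 64.3 CPM and the female Myc mice between 24.3 and 29.9 CPM, while KO and Myc mice overlap for Pcdhgc5.

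**Figure D4:**
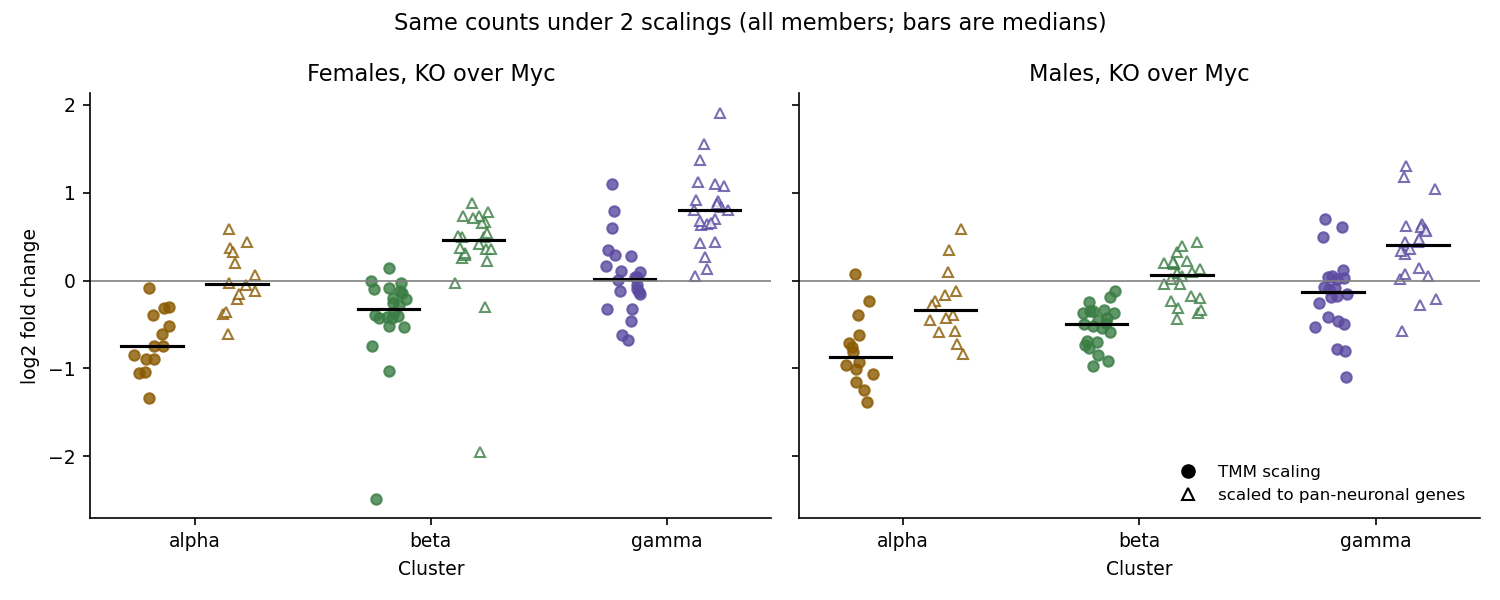
The log2 fold change of KO over Myc of all members by cluster, with TMM scaling (filled circles) and with libraries scaled to pan-neuronal genes (open triangles), in females and males, with bars for the median. Medians of the alpha, beta and gamma clusters in females are -0.74, -0.32 and 0.023 with TMM scaling. On the other scale they are -0.044, 0.46 and 0.80, where the median of all genes is 0.78. Rescaling moves all genes of a comparison by nearly the same amount, so it could hardly change the order of the clusters.

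No member was called for a difference of the KO response between females and males by edgeR's quasi-likelihood test or by DESeq2. Over all genes tested, edgeR called 0%, and DESeq2 called 23 genes with a negative and 7 with a positive difference, female minus male. By edgeR 5 members had an unadjusted p under 0.05, beside 1569 of all 28449 genes tested. The median difference over the members was 0.20 on the log2 scale, female minus male, beside -0.013 over all genes. Pcdhga1 had the smallest p, with a difference of 0.95 (adjusted p = 0.55 by edgeR's quasi-likelihood test). The count of 14 against 28 members that fell is therefore not a tested difference between the sexes.

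The replacement groups were compared with KO to ask whether H2A.Z.1 changes expression where endogenous H2A.Z is deleted. In females 5 members were higher and 2 lower in WT than in KO mice (against 5.35% of all genes higher and 9.18% lower), 5 higher and 2 lower in KA mice (5.62% and 9.62%), and 6 higher and 1 lower in KQ mice (5.35% and 7.63%). In males 9 were higher and 1 lower in WT (7.44% and 12%), 5 higher and 1 lower in KA (5.88% and 9.93%), and 15 higher and none lower in KQ mice (8.72% and 12.7%). For the 58 members, 5 is 8.62% and 15 is 25.9%. These directions hold for TMM scaling. When libraries were scaled to pan-neuronal genes, none was higher and 3 were lower in female KQ mice, and 1 was higher and 1 lower in male KQ mice, where the median over members moved to -0.068, against 0.35 with TMM scaling and beside -0.42 over all genes on the same scale. The 15 members of male KQ mice were 6 with only the compared groups in the fit, 7 without KO mouse 4, 9 without KQ mouse 44 and 28 without KO mouse 42. Pcdhac1, Pcdhga4 and, except in female KQ mice, Pcdhga2 were higher than in KO in each of these comparisons. Pcdhgc3 was lower than in KO in each except that with male KQ mice. All of these comparisons share the KO mice of their sex.

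Pcdhac1 was at 1.90, 1.44, 1.92 and 2.81 CPM in female WT mice, 1.91, 1.40, 1.83 and 2.37 CPM in female KA mice and 1.98, 2.25 and 2.08 CPM in female KQ mice, all above the 0.862 to 1.36 CPM of female KO mice. Its log2 fold change over KO was 0.84, 0.75 and 0.91 in females and 0.96, 0.97 and 0.84 in males for WT, KA and KQ mice (adjusted p = 0.00039 to 0.011). Against Myc the values were -0.052, -0.14 and 0.017 in females and 0.20, 0.22 and 0.085 in males, none of which passed.

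Pcdhga2 was at 8.15, 6.10, 6.54, 6.86 and 7.95 CPM in male WT mice, 6.10, 5.85, 6.32 and 7.42 CPM in male KA mice and 7.05, 6.97, 8.65, 10.3 and 7.44 CPM in male KQ mice, against 4.27 to 4.93 CPM in male KO mice. No male replacement mouse overlapped the KO mice, with log2 fold changes over KO of 0.64 ± 0.13, 0.49 ± 0.13 and 0.83 ± 0.13. In females the values were 0.56, 0.51 and 0.37, of which that of KQ mice did not pass (adjusted p = 0.073).

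Pcdhgc3 was at 38.4, 38.7, 36.2 and 34.6 CPM in female WT mice, 41.4, 47.2, 35.0 and 38.7 CPM in female KA mice and 43.9, 35.1 and 44.5 CPM in female KQ mice. These levels lie below those of all female KO mice and above those of all female Myc mice. The log2 fold change over KO was -0.65 ± 0.13, -0.52 ± 0.13 and -0.50 ± 0.14, and over Myc it was 0.45 ± 0.14, 0.59 ± 0.14 and 0.60 ± 0.15 (adjusted p = 0.04, 0.009 and 0.015). Without Myc mouse 32, Pcdhgc3 was not called against Myc in KA or KQ females, where no member was. In males Pcdhgc3 was lower than in KO by 0.39 in WT and by 0.38 in KA mice on the log2 scale and had a value of -0.27 in KQ mice that did not pass, and only the KQ mice were called higher than Myc (0.44 ± 0.12, adjusted p = 0.03).

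Pcdhac2 and Pcdhb8 were higher than in KO in part of the groups. Pcdhac2 was called in male WT mice (0.52 ± 0.15), male KQ mice (0.64 ± 0.15) and female KQ mice (0.55 ± 0.17), and had values of 0.38 to 0.41 in the other groups that did not pass. Pcdhb8 was called in female WT (1.00 ± 0.24), female KA (0.86 ± 0.24), male WT (0.93 ± 0.23) and male KQ mice (0.82 ± 0.23). Pcdhga1, which fell in male KO mice, was higher than in KO by 1.07 ± 0.19 on the log2 scale in male KQ mice and by 0.70 ± 0.19 in male WT mice, while the value of 0.51 ± 0.19 in male KA mice did not pass.

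**Figure D5:**
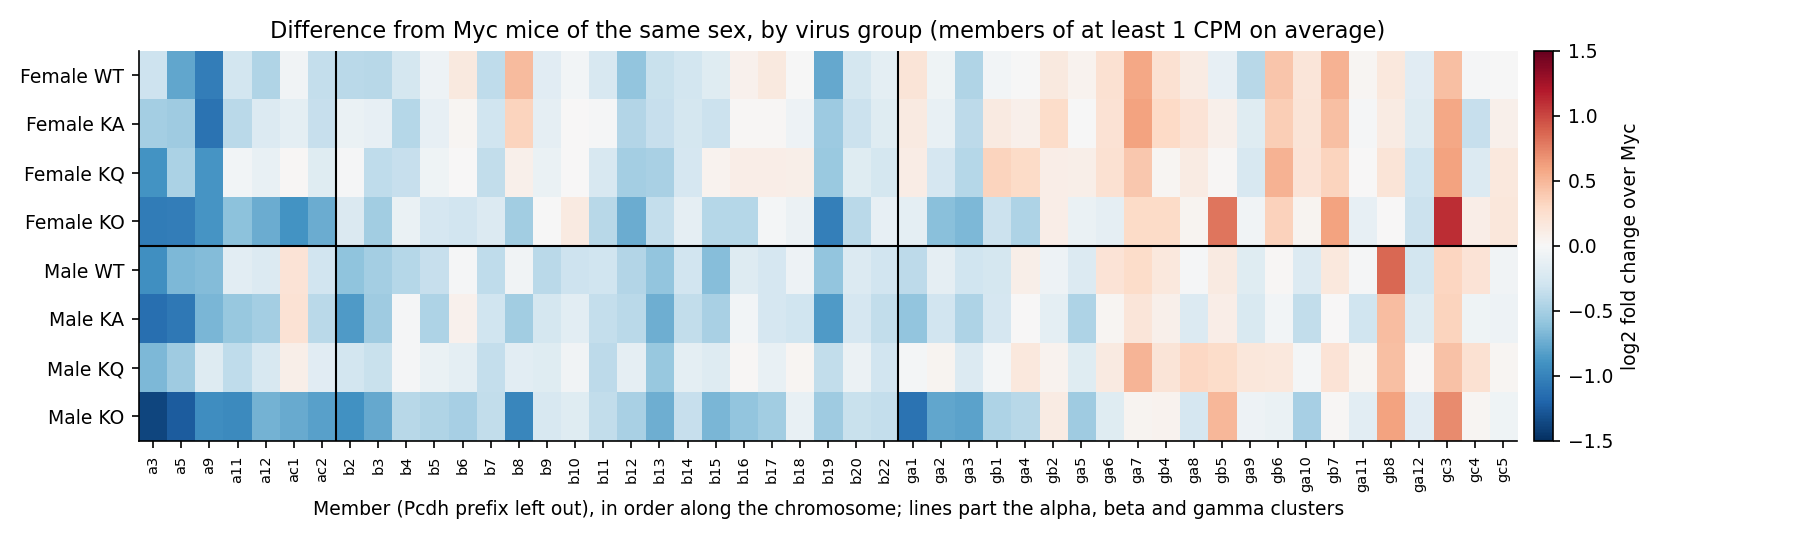
The log2 fold change over Myc mice of the same sex (colour) for members of at least 1 CPM on average, in order along the chromosome, in WT, KA, KQ and KO mice of each sex. Alpha members such as Pcdha3 are blue in most groups, with -1.38 in male KO and -0.68 in male KQ mice, and Pcdhgc3 is red in all 8 groups, with the highest value of 1.10 in female KO mice.

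Against Myc mice, few members were called in replacement mice. In females 1 member was higher and 2 lower in WT (against 5.87% of all genes higher and 3.52% lower), 1 higher and 1 lower in KA (4.42% and 3.23%) and 1 higher and none lower in KQ mice (3.59% and 2.08%). Without Myc mouse 32, 1, 0 and 0 members were called in female WT, KA and KQ mice. On the pan-neuronal scale, 5, 5 and 4 members were higher and none lower in these groups. The member that was higher was Pcdhgc3 in each, and those that were lower were Pcdha9 (-1.04 in WT and -1.11 in KA mice) and, in WT mice, Pcdhb19 (-0.77). In males 1 was higher and 5 lower in WT (3.66% and 1.68%), none higher and 9 lower in KA (5.15% and 2.74%) and 1 higher and none lower in KQ mice (3.48% and 1.65%). The 9 members that were lower in male KA mice were Pcdha1, Pcdha3, Pcdha5, Pcdha10, Pcdhb2, Pcdhb3, Pcdhb13, Pcdhb19 and Pcdhga1, with log2 fold changes of -0.53 to -1.17. Those that were lower in male WT mice were Pcdha1, Pcdha3, Pcdhb3, Pcdhb15 and Pcdhb19, and Pcdhgb8 was higher (0.86 ± 0.20). No member was lower in all of these groups. The counts of male KA mice depended on scaling, since none was called when libraries were scaled to pan-neuronal genes.

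Pcdha3 shows the spread of the male groups, with 1.85, 0.960, 1.11, 1.20 and 1.28 CPM in WT mice, 1.18, 1.17, 0.892 and 1.19 CPM in KA mice and 0.915, 1.46, 1.43, 2.57 and 1.16 CPM in KQ mice, against 2.56, 2.03, 2.96 and 2.13 CPM in Myc mice. The WT and KA mice lay below all Myc mice, and a single KQ mouse, 44, lay among them. The log2 fold change over Myc was -0.92 ± 0.26 (adjusted p = 0.029), -1.13 ± 0.28 (adjusted p = 0.0075) and -0.68 ± 0.26 (adjusted p = 0.13).

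Between the lysine mutants, KA against KQ, no member was called in females or males by edgeR's quasi-likelihood test or by DESeq2. Over all genes tested, edgeR called 0% in either sex. DESeq2 called 1 gene lower and 7 higher in female KA mice, and 18 lower and 2 higher in male KA mice. An unadjusted p under 0.05 was found for 1 member in females and for 12 in males, all 12 lower in KA mice, beside 595 and 2992 of all 28449 genes tested. In males 49 of 58 log2 fold changes were negative, beside 14033 of 28449 over all genes, and their median was -0.21, beside 0.0036. These values come from the same mice and are not independent. Summed over all members, KQ mouse 44 had 480 CPM, against 318 to 391 CPM in the other male KQ mice and 302 to 355 CPM in male KA mice. Pcdhga1 was at 4.31, 3.12, 4.01 and 3.16 CPM in male KA mice against 4.96, 4.17, 4.74, 7.56 and 5.50 CPM in male KQ mice, with a log2 fold change of -0.56 (adjusted p = 0.36 by edgeR). A difference between KA and KQ mice was thus not detected for single members, and the 9 against 0 members lower than Myc in males is not a tested difference between the mutants.

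Genes that act with the clustered protocadherins were taken from lists. Their counts stand beside the 16.5% of all genes tested that fell and 18.1% that rose in female KO mice, and 14.4% and 17.2% in male KO mice. Of 19 regulators of their promoters, 2 fell and 4 rose in female KO mice and 2 fell and 2 rose in male KO mice. Rest, a repressor of neuronal genes in other cells, rose by 1.17 and 0.92 on the log2 scale, and Dnmt3b, a DNA methyltransferase that methylates protocadherin promoters in the mouse embryo, rose by 0.91 and 0.80. Pds5b, a cohesin regulator, fell by 0.46 in females. Ctcf, whose protein binds the variable promoters, had values of -0.17 and -0.11, and the cohesin genes Rad21, Smc1a and Smc3 had values between -0.12 and 0.23, none of which passed. Smchd1, which silences protocadherin genes in the mouse, rose by 0.23 in females and had a value of 0.20 in males that did not pass.

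Of 22 genes of proteins that bind protocadherins or act after them, 7 fell and 5 rose in female KO mice and 6 fell and 5 rose in male KO mice. The WAVE complex, an activator of actin branching, was split, since Wasf1 fell by 0.48 and 0.53 and Cyfip2 by 0.66 and 0.50, while Wasf2 rose by 1.02 and 1.05 and Cyfip1 by 0.30 and 0.28. Ptk2b, a kinase held back by protocadherin cytoplasmic tails, fell by 0.69 in each sex, and Marcks, a gamma-protocadherin effector in dendrites, rose by 0.81 and 0.70.

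Of 12 protocadherins outside the clusters, 4 fell in female KO mice (Pcdh1, Pcdh9, Pcdh19 and Pcdh20), and in male KO mice Pcdh1 and Pcdh20 fell and Pcdh15 rose. Of 16 tested neighbours of the clusters on chromosome 18, 5 fell and 2 rose in females and 2 fell and 1 rose in males. Diaph1, just past the gamma cluster, fell by 0.40 and 0.31, and Cd14, a monocyte and microglial receptor gene, rose by 2.43 and 1.69. Taf7, which lies between the beta and gamma clusters, had values of 0.35 and 0.34 that did not pass.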

How the data were processed

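Per the study's methods, the authors aligned paired-end reads of hippocampal RNA to GRCm39 with Rsubread, counted them per gene with featureCounts and deposited raw counts, which were used here. Per the submitters' processing notes FastQC 0.11.9 and DESeq2 1.38.3 were also used. The strand setting and the treatment of reads on several genes or places are not given in the sources used here. A second deposited table of values normalized by the authors was not used.

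Genes whose counts added up to 20 or more were tested with edgeR 4.0.16 under R 4.3.3, using TMM scaling and robust quasi-likelihood fits with a mean for each of 10 groups and Benjamini-Hochberg adjustment over all genes tested in each of 17 comparisons. The procedure was tested on simulated data in which a small part of the genes changed, equally often up and down. Such data do not cover wide shifts in cell types or the choice of scaling. Every p-value measures the spread between mice. The SE of a log2 fold change was derived from the test, as its absolute value divided by the square root of the quasi-likelihood F statistic. Cluster sums, shares and correlations carry no test. Named members are the C-type isoforms, the 4 members with the smallest p in KO against Myc per group of isoforms at a mean of at least 0.5 CPM, and members called against the direction of most of their cluster. Others are named where a count was small or an example was needed, after their values were seen. Members and the 14 gene lists were chosen with earlier results of these data known. Positions, exon lengths and repeated windows were computed from GENCODE models on GRCm39, matched by symbol for all 58 members, and the annotation behind the counts may differ. Alternatives were DESeq2 1.42.0, DESeq2 size factors, other count filters, only the compared groups, the sample number range as a covariate, scaling to pan-neuronal genes, leaving out the 4 mice above 1000 CPM of Ttr, a log2 fold change over 1 and leaving out each mouse in turn. Values of 1 listed promoter regulator are not reported here.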

Additional observations from a re-analysis of the deposited data

Results flagged for a closer look

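Across the named members and the 3 cluster sums, 200 groups of 4 or 5 mice were examined for a mouse set apart from the rest of its group, and 17 were found. Chance gives about 1 in 20. In the alpha cluster, Pcdhac2 was at 16.7 CPM in female KA mouse 36, against 12.8 to 13.1 CPM in the others of its group, and at 17.2 CPM in male Myc mouse 22 against 21.0 to 21.7 CPM. Pcdha5 was at 2.41 CPM in the same mouse 22 against 3.28 to 3.37 CPM, and at 3.14 CPM in male WT mouse 9 against 1.52 to 1.73 CPM. Pcdha12 was at 4.40 CPM in mouse 9 against 3.07 to 3.38 CPM, and at 3.07 CPM in male KO mouse 42 against 2.20 to 2.29 CPM. Pcdha3 was at 0.892 CPM in male KA mouse 26 against 1.17 to 1.19 CPM, and the alpha cluster summed to 40.7 CPM in male KQ mouse 44 against 30.3 to 33.2 CPM.

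In the beta cluster, Pcdhb19 was at 3.98 CPM in female WT mouse 40 against 2.89 to 3.03 CPM and at 5.56 CPM in male KQ mouse 44 against 4.00 to 4.24 CPM, and Pcdhb8 was at 2.93 CPM in female KA mouse 16 against 1.77 to 1.93 CPM. In the gamma cluster, Pcdhga1 was at 3.76 CPM in male KO mouse 42 against 2.04 to 2.34 CPM and at 6.23 CPM in male Myc mouse 1 against 5.17 to 5.32 CPM. Pcdhga10 was at 5.27 CPM in female KA mouse 16 against 6.03 to 6.17 CPM, and Pcdhgc4 was at 6.34 CPM in male WT mouse 46 against 3.86 to 4.46 CPM. Male KA mouse 25 had 2.23 CPM of Pcdhgb5 against 3.21 to 3.38 CPM and 2.89 CPM of Pcdhgb1 against 4.40 to 4.62 CPM.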

How the results depend on the processing

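The count of members called in KO against Myc stayed within 1.5 times of 17 in females and 30 in males under DESeq2, DESeq2 size factors, both other filters, the sample number range, leaving out mice above 1000 CPM of Ttr, and leaving out each mouse in turn (14 to 17 in females, 21 to 33 in males). With only the compared groups it was 9 in females, and scaled to pan-neuronal genes 11 in males and 25 in females. With a log2 fold change over 1 as well it was 4 and 5. Depth limits Pcdha4, Pcdha6, Pcdha7, Pcdha8 and Pcdhb1. No paired analysis was possible because mouse numbers are not shared between groups.

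For replacement against KO, the log2 fold change over 1 left 0 members called in females (WT, KA and KQ) and in males 0 (WT and KA) and 1 (KQ). With only the compared groups, 3 (WT), 1 (KA) and 0 (KQ) were called in females and 1 (KA) and 6 (KQ) in males, and scaled to pan-neuronal genes 3 (KQ, all lower) in females and 2 (WT, 1 lower), 3 (KA, 2 lower) and 2 (KQ, 1 lower) in males. Leaving out each mouse gave 5 to 8 (WT), 2 to 10 (KA) and 2 to 8 (KQ) in females and 5 to 13 (WT), 2 to 8 (KA) and 7 to 28 (KQ) in males, with the lowest male counts without KO mouse 4, the highest male KQ count without KO mouse 42 and the lowest female ones of KA and KQ without KO mice 13 and 14. Without mice above 1000 CPM of Ttr 4 (female KA) were called.

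For replacement against Myc, DESeq2 called 8 (WT) and 3 (KQ) in females and 2 (KQ) in males, filterByExpr 5 (WT) and 2 (KQ) in females, and the sample number range 2 (KQ) in each sex. Scaled to pan-neuronal genes 5 (WT), 5 (KA) and 4 (KQ) were called in females, all higher, and 1 (WT, higher), 0 (KA) and 0 (KQ) in males. With only the compared groups it was 1 (KA) in females and 11 (WT) and 15 (KA) in males, and with a log2 fold change over 1 it was 1 (WT), 1 (KA) and 0 (KQ) in females and 1 (WT), 3 (KA) and 0 (KQ) in males. Leaving out each mouse gave 1 to 6 (WT), 0 to 3 (KA) and 0 to 2 (KQ) in females and 1 to 7 (WT), 4 to 8 (KA) and 0 to 2 (KQ) in males, with the lowest without Myc mouse 32 in females and Myc mouse 1 in males. Without mice above 1000 CPM of Ttr 1 (female WT) and 0 (female KQ) were called. The cause of these changes was not tested.

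Log2 fold changes of KO over Myc that changed sign when scaled to pan-neuronal genes were, in females, Pcdhb13 (0.42), Pcdhb3 (0.26), Pcdhb8 (0.22), Pcdhga1 (0.63), Pcdhga2 (0.13), Pcdhga3 (0.053), Pcdhga4 (0.26) and Pcdhgb1 (0.44), and in males Pcdhga10 (0.070), Pcdhga4 (0.14), Pcdhgb1 (0.051) and Pcdhgc5 (0.47). With the sample number range, Pcdhgb7 in males (-0.023) and Pcdhgb8 in females (-0.028) changed sign. Without mice above 1000 CPM of Ttr, Pcdhga1 (0.048) and Pcdhgb8 (-0.14) in females did too. None of these except Pcdhb3, Pcdhga2, Pcdhga3 and Pcdhga4 in females and Pcdhga10 and Pcdhga4 in males had passed the test. Leaving out each mouse, signs also changed for Pcdhga1 (-0.36 to 0.13), Pcdhga10 (-0.069 to 0.11), Pcdhgb8 (-0.20 to 0.34) and Pcdhgc4 (-0.13 to 0.32) in females, and for Pcdhgb7 (-0.049 to 0.069), Pcdhgc4 (-0.055 to 0.17) and Pcdhgc5 (-0.23 to 0.0026) in males.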
